A study of Arabidopsis thaliana with 36 samples.

Results

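The genes described are trnV, trnM, ndhC, ndhK and ndhJ, which lie side by side in the plastid genome of Arabidopsis thaliana. They are 5 of the 113 plastid genes measured, were named by gene and position, and all 5 had a value in every library. In the coordinates of the RefSeq gene table (assembly TAIR10.1, plastid chromosome), ndhJ (locus ArthCp025) is 477 bp long and ends at 49153, ndhK (ArthCp026) spans 49257 to 49934, ndhC (ArthCp027) 50001 to 50363 and trnV (ArthCt103) 51199 to 51871, and trnM (ArthCt104) starts at 52056 and is 73 bp long. The spacer between ndhC and trnV is 835 bp long, and the one between trnV and trnM is 184 bp long. The trnV span of 673 bp is known to be mostly intron. The spans were taken whole because the gene table gives neither exons nor strand, and no sequence is shown because none was at hand.

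Chloroplast genes are transcribed largely by the plastid-encoded RNA polymerase, of which RpoB is a core subunit. Nucleus-encoded sigma factors guide it to promoters, and SIG2 is known for its part in transcribing several tRNA genes, trnV and trnM among them. The gene trnV encodes a valine tRNA and trnM the methionine tRNA used within a protein chain. The genes ndhC, ndhK and ndhJ encode subunits of the chloroplast NADH dehydrogenase-like complex, which works in cyclic electron flow around photosystem I, and they are known to be transcribed together in that order. NdhC lies in the membrane part of the complex, and NdhK and NdhJ in the part that reaches into the stroma.

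Chromatin was crosslinked in chloroplasts with 4% formaldehyde for 4 h, and DNA bound by the protein (ChIP) was sequenced beside unselected DNA (input). Leaf chloroplasts came from 5 g of rosette leaves of 14-day-old Col0 plants, either 2 h after lights came on (the group Day) or following 24 h without light (the group Night). Seedling chloroplasts came from pools of 50 seedlings, grown for 4 days or, by the extraction protocol, 4 to 5 days, of Col0, sig2-2, chl27 and chlm, all kept in continuous light. The sig2-2 line is known to carry a defect in SIG2, and the chl27 and chlm lines defects in chlorophyll synthesis enzymes. Each plant group had 3 ChIP and 3 input libraries, 36 in all. The labels name the antibody, against RpoB, for the leaf ChIP libraries only, and give the genotype entry of all 4 seedling lines as wild type, so the lines rest on their titles. Nuclear genes and tissue markers are not in plastid coverage, so neither the lines nor the tissues could be checked. The labels do not say that replicates were separate cultures, so p-values measure only the spread between these libraries.

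Mean coverage per position lay between 102 and 1039 in the leaf ChIP libraries, with Night replicate 1 the shallowest, and between 1017 and 3165 in the other libraries. How many reads stand behind a value is not known. Levels are given as relative coverage, the mean over a gene divided by the plastid mean of that library, so that 1 is the plastid average. Enrichment is the log2 of ChIP over input after scaling each library to its plastid total, and 0 is again the plastid average. Such values show how bound DNA was spread over the plastid genome. They cannot tell more polymerase on each genome from more genomes bound, nor give an absolute amount. Tests were made with limma over all 113 genes with Benjamini-Hochberg adjustment, and called means an adjusted p under 0.05. The standard error (SE) of a gene rests on a spread pooled over all leaf or all seedling libraries. It does not give the spread within 1 group: the SD of trnV enrichment was 0.27 in chl27 and 0.03 in chlm. Neighbouring genes share reads and are not independent.

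The 3452 bp from ndhJ to trnM held 2.08 to 2.34% of plastid coverage in the inputs. They held 2.97 to 4.90% in the ChIP libraries of Day, Night, Col0, chl27 and chlm, and 1.86 to 1.97% in those of sig2-2. The ChIP share was above every input in 5 groups and below every input in sig2-2.

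As a mean over its whole span, 73 bp against 673 bp for trnV, trnM was the more strongly bound of both tRNA genes. Its relative coverage in the ChIP libraries was 3.35, 4.20 and 3.62 in Day, and 5.12, 5.01 and 3.42 in Night. In seedlings it was 3.88, 4.17 and 4.04 in Col0, 3.62, 3.22 and 2.98 in chl27, and 4.15, 4.28 and 4.18 in chlm. All 15 of these libraries lay far above the inputs, which ran from 0.859 to 1.03. In sig2-2 trnM was at 1.65, 1.35 and 1.76, still above its inputs of 0.902 to 0.934 but below every ChIP library of the other groups.

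For trnV, the relative coverage was 3.08, 3.30 and 2.82 in Day, and 3.69, 3.85 and 3.09 in Night. In seedlings it was 3.20, 2.94 and 2.91 in Col0, 3.48, 2.66 and 2.42 in chl27, and 3.28, 3.20 and 3.13 in chlm. These 5 groups overlapped one another and lay above the trnV inputs, which ran from 0.949 to 1.07 over all 6 groups. In sig2-2 it was 0.917, 0.811 and 0.845, below its own inputs of 1.02 to 1.07 and below every other ChIP library.

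**Figure D1:**
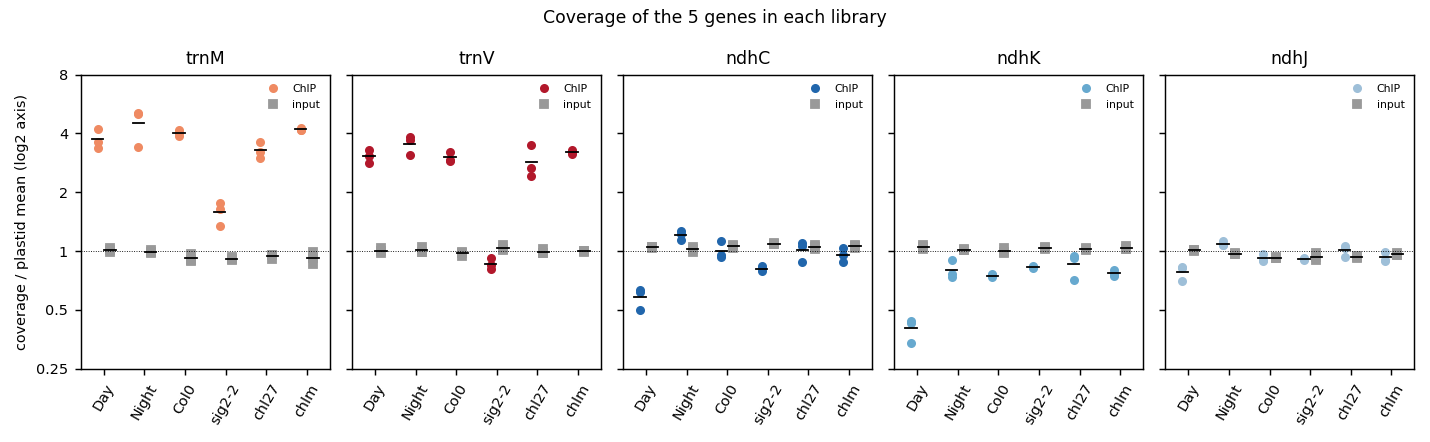
Relative coverage (log2 axis, 1 is the plastid mean, dotted) of each gene in each library of the 6 plant groups; coloured circles are ChIP libraries, grey squares inputs, and black bars the means of 3. In the ChIP libraries trnM and trnV stand at 2.42 to 5.12 except in sig2-2, and ndhC, ndhK and ndhJ are lowest in Day.

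Against input, the log2 enrichment of trnM was 1.87 ± 0.12 (SE, n = 3 against 3) in Day, 2.16 ± 0.12 in Night, 2.13 ± 0.08 in Col0, 1.79 ± 0.08 in chl27 and 2.19 ± 0.08 in chlm. That of trnV was 1.61 ± 0.11, 1.81 ± 0.11, 1.63 ± 0.08, 1.5 ± 0.08 and 1.68 ± 0.08 in the same order. Both genes were called higher in these 5 groups, where the share of all genes called higher was 33.6% in Day, 35.4% in Night, 36.3% in Col0, 35.4% in chl27 and 34.5% in chlm. Most other tRNA genes were called higher too: of 28, 27 in Day, 24 in Night and all 28 in Col0, chl27 and chlm. Their median enrichment was 1.37 in Day, 1.00 in Night, 1.46 in Col0, 1.21 in chl27 and 1.43 in chlm. Ranked from the highest of the 113 genes, trnM was 2nd in Col0 and chl27, 4th in chlm, 6th in Night and 9th in Day, and trnV was between 7th and 19th. In sig2-2, trnM was called higher at 0.78 ± 0.08, or 1.72-fold (limma, adjusted p = 5.1e-11), where 31.9% of genes were. Of the other 28 tRNA genes 21 were higher in sig2-2, 3 lower and 4 not called, with a median of 0.47. There trnV was called lower at -0.28 ± 0.08 (limma, adjusted p = 0.0022), where 51.3% of genes were; scaled to coverage outside the inverted repeats it was -0.16 (adjusted p = 0.095), and centred on the median gene -0.08 (adjusted p = 0.53).

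Ordered by mean enrichment, trnV ran from Night through chlm, Col0, Day and chl27 to sig2-2, and trnM from chlm through Night, Col0, Day and chl27 to sig2-2. Neighbours in these orders overlapped in their libraries, except for the last step to sig2-2 in both and for trnM from Col0 (lowest 2.07) to Day (highest 2.05). No test was made between leaf and seedling libraries, which differ in age and table.

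Within a library, the mean over trnM stood above the mean over trnV. After subtracting the same difference in the inputs, this gap was 0.27 on the log2 scale in Day, 0.35 in Night, 0.50 in Col0, 0.29 in chl27 and 0.51 in chlm. In sig2-2 this gap was 1.06 ± 0.17 (SD, n = 3), against 0.50 ± 0.12 in Col0. The 3 sig2-2 libraries lay above the 3 of Col0, a change of 0.57 (exact two-sided permutation test, p = 0.1, adjusted p = 0.143). With 3 libraries against 3, 0.1 is the smallest p this test can give, and the adjustment ran over 60 such differences.

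Enrichment along the stretch had 1 main peak, in or at the edges of the spacer between trnV and trnM. The highest point of the 51 bp running mean lay 3 to 20 bp from the end of trnV that faces trnM in all 3 Night libraries, in Day replicate 1 and in chl27 replicate 1. In the other Day and chl27 libraries and in all of Col0 and chlm it lay 129 to 162 bp beyond that end, closer to trnM. It was 4.17- to 7.67-fold over input. The mean over this spacer was 2.06 to 2.36 (log2) in the Day libraries, 2.19 to 2.83 in Night, 2.15 to 2.40 in Col0, 2.00 to 2.17 in chl27 and 2.47 to 2.57 in chlm.

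The peak was lopsided in these 5 groups, but not in the same direction. In Col0, chl27, chlm and Day replicates 2 and 3, enrichment dropped by 1 log2 unit within 132 to 296 bp of the summit beyond trnM, and over a longer distance, 302 to 896 bp, towards ndhC. In the 3 Night libraries the shorter distance was the one towards ndhC, 170 to 205 bp against 245 to 270 bp, and in Day replicate 1 it was 246 bp against 274 bp. The part of trnV facing trnM was above the part facing ndhC in each of these 15 libraries, at 1.63 to 1.77 against 1.32 to 1.66 in Day and at 1.71 to 1.85 against 1.39 to 1.58 in Col0.

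**Figure D2:**
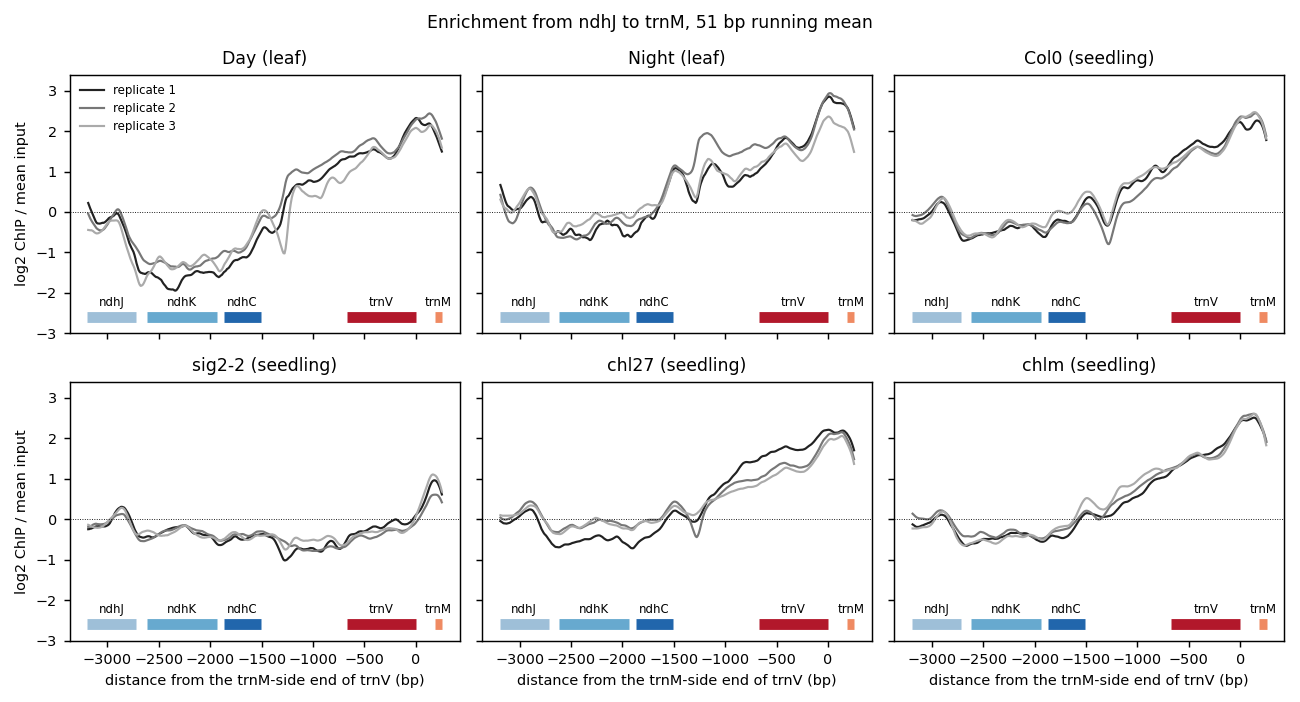
Log2 of ChIP over the mean input of the group (vertical axis, 51 bp running mean, 0 is the plastid average, dotted) against the distance in bp from the end of trnV that faces trnM, 1 panel per plant group and 1 line per replicate; coloured bars mark the genes. A peak between trnV and trnM with a slope down towards ndhC stands in 5 groups, and in sig2-2 only a low peak near trnM is left, 1.52- to 2.16-fold over input.

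In 50 bp windows tested over the whole plastid genome, enrichment was called higher without a break from 50651 to 52100 in Day and chl27, from 50601 to 52100 in Night and chlm, and from 50701 to 52100 in Col0. This covers trnV, its spacer to trnM, part of trnM and most of the spacer towards ndhC. Only windows wholly inside the stretch were read, and the last of them ends at 52100. Runs that end at 52100, here and below, are therefore cut there and do not show where binding stops. In these 5 groups the running mean fell 1 log2 unit below its summit only at 52136 to 52172, beyond trnM. In all, 42.6% of the 68 windows of the stretch were higher in Day, 57.4% in Night, 48.5% in Col0, 52.9% in chl27 and 50% in chlm. The shares over the plastid genome were 22.5%, 24.6%, 24.8%, 25% (771 of 3089 windows) and 25.6%. In Day 47.1% of the 68 windows were called lower, against 68.9% over the genome. Neighbouring windows share reads, so a run of windows is not a count of separate results.

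The ndh genes lay beside this peak, with coverage around or below the plastid average. The relative coverage of ndhC in the ChIP libraries was 0.500, 0.615 and 0.632 in Day and 1.14, 1.23 and 1.27 in Night. In seedlings it was 0.953, 0.928 and 1.13 in Col0, 0.881, 1.09 and 1.06 in chl27, 0.878, 0.957 and 1.04 in chlm, and in sig2-2 it was 0.793, 0.835 and 0.817. Day lay below and Night above its inputs, which ran from 0.990 to 1.05, and sig2-2 lay below its inputs of 1.09 to 1.10.

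ndhK had the lowest mean of the 5 genes in 5 groups, at 0.340, 0.430 and 0.437 in Day and 0.735, 0.765 and 0.896 in Night. In seedlings it was 0.733, 0.751 and 0.761 in Col0, 0.716, 0.942 and 0.927 in chl27, 0.762, 0.800 and 0.743 in chlm, and in sig2-2 it was 0.830, 0.843 and 0.819. All 18 ChIP libraries were below the inputs of their group, whose lowest value was 0.980. In sig2-2 the mean of ndhC was the lowest, 0.815 against 0.831 for ndhK.

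ndhJ was at 0.832, 0.819 and 0.702 in Day and 1.07, 1.08 and 1.12 in Night. It was at 0.893, 0.966 and 0.902 in Col0, 0.935, 1.06 and 1.04 in chl27, 0.903, 0.995 and 0.894 in chlm, and in sig2-2 it was 0.921, 0.899 and 0.916. Its inputs ran from 0.900 to 1.01. Day was below its inputs, Night was above them, and the 4 seedling lines overlapped theirs.

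Against input, all 3 ndh genes were called lower in Day, where 59.3% of genes were. The log2 values were -0.85 ± 0.11 for ndhC, -1.39 ± 0.12 for ndhK and -0.37 ± 0.11 for ndhJ. With libraries centred on the median gene only ndhK kept its direction there, and ndhC was at 0.094 and ndhJ at 0.58. In Night, ndhK was called lower at -0.35 ± 0.12 (limma, adjusted p = 0.0062; 53.1% of genes were lower) and ndhC higher at 0.25 ± 0.11 (limma, adjusted p = 0.036). ndhJ, at 0.17 ± 0.11 in Night, was not called (limma, adjusted p = 0.13). Both Night calls are weak: that of ndhK was lost without replicate 1 (-0.30) or 2 (-0.32), and that of ndhC without replicate 2 (0.22) or 3 (0.22), with scaling outside the inverted repeats (0.20) or with median coverage (0.054). Centred on the median gene, ndhK was at 0.040 there.

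In seedlings ndhK was called lower in Col0 (-0.42 ± 0.07, where 55.8% of genes were lower), chl27 (-0.27 ± 0.07; 54.0%), chlm (-0.43 ± 0.07; 56.6%) and sig2-2 (-0.33 ± 0.07). Centred on the median gene it turned positive in Col0, chl27 and chlm, at 0.11, 0.10 and 0.16. In chl27 the call rested on replicate 1, without which ndhK was at -0.13 and not called. ndhC was called lower in sig2-2 (-0.42 ± 0.08, limma, adjusted p = 4.8e-06) and stood at -0.08 in Col0, -0.06 in chl27 and -0.15 in chlm, none of them called; centred on the median gene these 3 values became 0.45, 0.31 and 0.44. ndhJ was not called in any seedling line, with values from -0.05 to 0.11, and centring raised them to 0.16 in sig2-2 and 0.48 to 0.55 in the others.

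Between the genes the low stretch was uneven. In Day the deepest window, at -1.57, lay in ndhK, and enrichment was called lower from 49001 to 50350. In ndhJ a small rise stood near its middle, between 48901 and 49050. All 3 windows there were called higher in Night (up to 0.52) and chl27 (up to 0.34), 2 in Col0 (up to 0.31), 2 in sig2-2 (up to 0.23) and 1 in chlm (0.17), while Day reached -0.07. Another small rise lay at the end of ndhC that faces trnV, where windows from 50301 to 50450 were called higher in Col0, chl27 and chlm by 0.18 to 0.35 and windows from 50251 to 50550 in Night by 0.42 to 1.08. In sig2-2 the windows from 49651 to 51600 were called lower without a break, at -0.76 to -0.23, with no rise at this place. In sig2-2 77.9% of the windows of the stretch were lower and 8.82% higher, against 62.4% and 20.8% over the genome.

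The comparison of sig2-2 with Col0 asks how binding differs in the line affected in SIG2. trnV lost 3.76-fold of its enrichment, a change of -1.91 ± 0.12 (limma, adjusted p = 5.1e-18), and trnM 2.54-fold, a change of -1.34 ± 0.12 (limma, adjusted p = 4.2e-13). Only 2 of 113 genes fell further than trnV, and it was also the 111th of 113 in the comparisons with chl27 and chlm. ndhC fell by 0.34 ± 0.11 (limma, adjusted p = 0.0033), while ndhK (0.09 ± 0.11) and ndhJ (-0.03 ± 0.09) were not called. Of all genes, 33.6% were lower, 53.1% higher and 86.7% called in either direction, with a median of 0.36. Centred on the median gene, 50 genes were lower and 50 higher.

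The losses at trnV and trnM held under each alternative that gave a value, at -2.25 to -1.83 for trnV and -1.68 to -1.20 for trnM. The fall of ndhC was not called without replicate 3 (-0.26, adjusted p = 0.057) and was -0.68 with libraries centred on the median gene, a scaling that moves the median of all genes by -0.34. On that scale ndhK was at -0.25 and ndhJ at -0.37, and both were called lower. So the direction for ndhK turns with the scaling, and a difference for ndhK or ndhJ can be given only relative to the plastid mean or to the median gene.

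In windows, the change from Col0 to sig2-2 was called lower from 50151 to 50550 and from 50601 to 52100, with the single window between them not called. The fall began within ndhC, where 4 of 7 windows were lower by up to 0.57. It reached -0.70 just beyond the end of ndhC, grew over the spacer to -1.73 and was deepest, at -2.31, in the window from 51801 to 51850, at the end of trnV. Of the 68 windows 55.9% were lower, against 21.2% over the plastid genome. In ndhJ and the spacers on both sides of ndhK no window was called, and in ndhK 1 of 14 was called higher. The peak that was left in sig2-2 had its summit 164 to 189 bp beyond the end of trnV, at the border of trnM. The only windows of the stretch called above input outside ndhJ ran from 51901 to 52100, the end of the last window read, at 0.28 to 0.87.

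**Figure D3:**
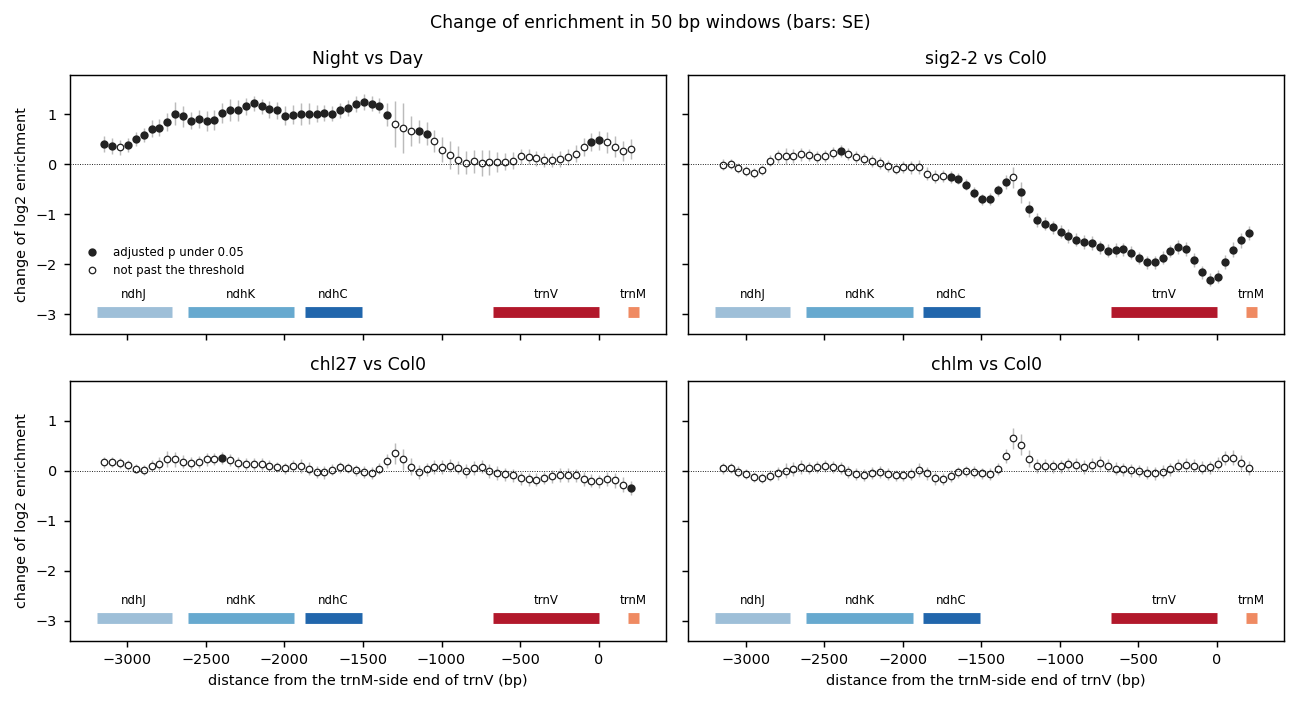
Change of log2 enrichment (vertical axis, bars are SE) in 50 bp windows against the distance in bp from the end of trnV that faces trnM, for 4 comparisons; filled points passed an adjusted p of 0.05 and coloured bars mark the genes. Night against Day is raised over ndhJ, ndhK and ndhC, sig2-2 against Col0 falls to -2.31 at the end of trnV, and chl27 and chlm lie at -0.34 to 0.35 and -0.16 to 0.65; scaled to coverage outside the inverted repeats, 38.2% of the Night windows stay called in place of 58.8%.

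The same genes were lower in sig2-2 when it was set against the other lines. Against chl27, where 24.8% of genes were lower, the changes were -1.78 ± 0.12 for trnV, -1.01 ± 0.12 for trnM and -0.36 ± 0.11 for ndhC. Against chlm, where 33.6% were lower, they were -1.96 ± 0.12, -1.41 ± 0.12 and -0.27 ± 0.11, and the last of these was not called without replicate 3 (-0.22) or when the median replaced the mean coverage of a gene (-0.16). Centred on the median gene, 35 genes were lower and 39 higher against chl27, and 49 and 47 against chlm. These comparisons share the sig2-2 libraries with the one against Col0 and are not separate evidence.

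The difference between trnV and ndhC within a library does not depend on the scaling. It was 2.46 ± 0.23 (log2, SD, n = 3) in Day, 1.56 ± 0.22 in Night, 1.71 ± 0.20 in Col0, 1.57 ± 0.43 in chl27 and 1.83 ± 0.16 in chlm after subtracting the inputs. In sig2-2 it was 0.14 ± 0.13 (exact permutation test against input, p = 0.2), and 0.09 to 0.19 when a replicate was left out. With so few libraries this test cannot show that no difference was left. The sig2-2 libraries did not overlap those of Col0, a change of -1.57 (exact two-sided permutation test, p = 0.1, the smallest possible). ndhC itself fell against ndhJ by 0.32 from Col0 to sig2-2 (exact two-sided permutation test, p = 0.1, adjusted p = 0.143).

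The comparison of Night with Day asks how binding differs after 24 h of darkness. Here the ndh genes changed and the tRNA genes were not called. ndhC rose 2.14-fold (1.10 ± 0.16, limma, adjusted p = 3.0e-07), ndhK 2.05-fold (1.04 ± 0.17, limma, adjusted p = 1.9e-06) and ndhJ 1.45-fold (0.53 ± 0.15, limma, adjusted p = 0.0021). All 3 Night libraries were above all 3 of Day for each of these genes. Of all genes 58.4% rose, 12.4% fell and 70.8% were called in either direction, and the median was 0.53, so ndhJ was the median gene of this comparison. Centred on the median gene, 35 genes rose and 37 fell. trnV changed by 0.20 ± 0.15 (95% interval -0.11 to 0.50) and trnM by 0.28 ± 0.17 (-0.07 to 0.63); centred on the median gene they were at -0.35 and -0.27, again not called.

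The size of these rises depends on the scaling. With libraries centred on the median gene, which lowers the median of all genes by 0.55, ndhC was at 0.55 (adjusted p = 0.011) and ndhK at 0.49 (adjusted p = 0.029), still called, and ndhJ at -0.016 (adjusted p = 0.90). Scaled to coverage outside the inverted repeats, they were at 0.66, 0.60 and 0.094, and ndhJ was not called (adjusted p = 0.50). trnM was called at 0.46 without replicate 3, whose Night library had the lowest trnM of its group. The Night ChIP libraries were also mostly shallower, with a mean coverage of 102, 480 and 236 against 425, 1039 and 768 in Day. The part of depth in these changes was not tested.

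Along the stretch, windows from 48851 to 50550 were called higher in Night without a break, by 0.39 to 1.25. The largest rise was just beyond the end of ndhC, at 50351 to 50400. From 50801 to 51800, over the rest of the spacer and nearly all of trnV, no window was called and values lay between 0.03 and 0.46. At the end of trnV, from 51801 to 51900, 2 windows were called higher by 0.44 and 0.48. Over the stretch 58.8% of windows were higher, against 62.1% over the plastid genome, so the share of raised windows was near that of the genome.

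Within libraries, ndhC gained on ndhJ in darkness. ndhC was below ndhJ by 0.49 ± 0.29 in Day and above it by 0.08 ± 0.05 in Night, after subtracting the inputs. The change of 0.56 came with libraries that did not overlap (exact two-sided permutation test, p = 0.1, adjusted p = 0.143). The gap between trnV and ndhC narrowed by 0.90 (exact two-sided permutation test, p = 0.1), and that between trnM and trnV changed by 0.09 (p = 0.5, exact test).

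The chl27 and chlm lines were compared with Col0 in the same way. In chl27, 54.0% of genes were called, 13.3% lower and 40.7% higher, and centred on the median gene 28 were lower and 35 higher. Of the 5 genes trnM alone was called, at -0.33 ± 0.12 (limma, adjusted p = 0.017), and the call was lost without replicate 2 (-0.27, adjusted p = 0.21) or replicate 3 (-0.27, adjusted p = 0.13). trnV was at -0.13 (95% interval -0.36 to 0.11), ndhC at 0.02 (-0.20 to 0.23), ndhK at 0.15 (-0.06 to 0.37) and ndhJ at 0.13 (-0.06 to 0.31). Without replicate 1, ndhK was called higher at 0.25. In windows 2 of 68 were called, 1 in each direction, against 64.4% of windows over the plastid genome. Replicate 1 of chl27 had the highest trnV and the lowest ndhC, ndhK and ndhJ of its group.

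In chlm, limma called 0.0% of genes, with 8 of the 113 at an unadjusted p under 0.05, and none of the 68 windows nor of the windows of the genome (0.0%). trnV was at 0.05 (95% interval -0.18 to 0.28), trnM at 0.06 (-0.17 to 0.30), ndhC at -0.07 (-0.28 to 0.15), ndhK at -0.01 (-0.22 to 0.20) and ndhJ at -0.04 (-0.23 to 0.15). The intervals leave room for changes of up to about 0.30 in either direction.

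The other 8 ndh genes of the plastid, which lie elsewhere, give the background for ndhC, ndhK and ndhJ. From Day to Night all 8 rose, by 0.67 (ndhE) to 2.17 (ndhH), with a median of 1.38, and the 3 genes here rose with a median of 1.04. From Col0 to sig2-2 all 8 rose as well, by 0.42 (ndhE) to 1.23 (ndhB), with a median of 0.70, whereas of the 3 genes 1 fell and 2 were not called. In both comparisons the median of all genes also moved up, by 0.53 and 0.36, and 58.4% and 53.1% of all genes rose. Centred on the median gene, 6 of the 8 still rose in Night (median 0.83) and 7 in sig2-2 (median 0.36), and none fell.

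Set against the median of the other ndh genes in the same library, a comparison added after the values were known, ndhC stood 0.89 ± 0.10 higher in Col0 and 0.12 ± 0.09 lower in sig2-2. ndhK stood 0.55 ± 0.08 higher in Col0 and 0.02 ± 0.07 lower in sig2-2. ndhJ stood 0.96 ± 0.13 higher in Col0 and 0.27 ± 0.04 higher in sig2-2. Each of the 3 genes thus lost ground to the other ndh genes in sig2-2, by 1.01, 0.58 and 0.70 on the log2 scale, and in none did the libraries of both lines overlap (exact two-sided permutation tests, p = 0.1 each, adjusted p = 0.143). In darkness ndhJ lost 0.66 to the others (exact two-sided permutation test, p = 0.1). The same change was -0.10 for ndhC (exact permutation test, p = 0.8) and -0.16 for ndhK (exact permutation test, p = 0.7). With a replicate left out it was -0.20 to 0.05 for ndhC and -0.27 to -0.08 for ndhK. With so few libraries the test cannot show that these 2 genes moved with the others. In chl27 the same 3 differences from Col0 were -0.36, -0.22 and -0.25 (exact two-sided permutation tests, p = 0.1 each). In chlm they were -0.10, -0.05 and -0.07. Enrichment over all genes was flatter in sig2-2, at -0.72 to 1.64 against -1.97 to 2.67 in Col0. The median of the other ndh genes was -0.98 in Col0 and -0.30 in sig2-2. In darkness the lowest of all genes was at -1.39, against -3.27 in Day. Whether the 3 genes lost more ground than this general narrowing gives was not tested.

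**Figure D4:**
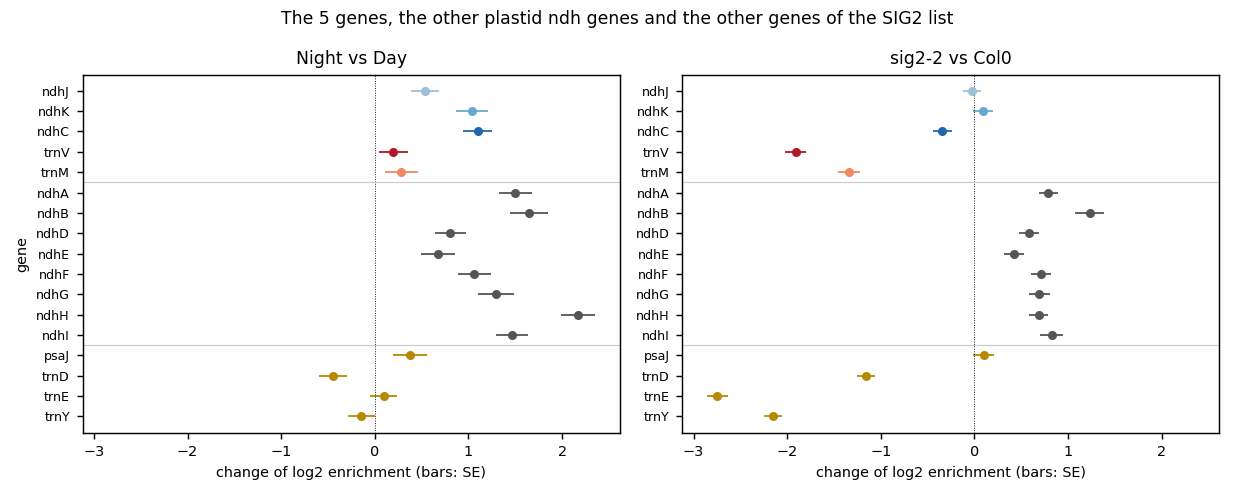
Change of log2 enrichment (horizontal axis, bars are SE) from Day to Night and from Col0 to sig2-2 for the 5 genes (coloured), the other 8 plastid ndh genes (grey) and the other 4 genes of the SIG2 list (ochre). In sig2-2 the other ndh genes lie at 0.42 to 1.23 while ndhC, ndhK and ndhJ lie at -0.34 to 0.09; centred on the median gene, ndhK and ndhJ are lower as well.

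Among the other 28 tRNA genes, 26 fell and 2 were not called in sig2-2 against Col0, where 33.6% of all genes fell. Their median was -0.70, so trnV and trnM fell further than the middle of that list. From Day to Night 5 of the 28 rose, 8 fell and 15 were not called, with a median of -0.12 (0 and 19 when centred on the median gene). Of all genes 58.4% rose and 12.4% fell there. Of the other 4 genes listed as dependent on SIG2, trnE (-2.75), trnY (-2.15) and trnD (-1.16) fell in sig2-2, and psaJ was at 0.10 and not called, though lower at -0.24 when centred on the median gene. This list was chosen with earlier results of these data known and is no independent support.

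By the root mean square difference in log2 enrichment over the 6 plant groups, the genes with the pattern nearest to trnV were trnY (0.19), trnG at ArthCt092 (0.32) and trnfM (0.41). Nearest to trnM were trnG at ArthCt116 (0.19), trnfM (0.22) and trnQ (0.23). ndhC came nearest to psbK (0.26), ndhK to rps16 and rpoA (0.22 each) and ndhJ to psaJ (0.14) and petN (0.15). These are distances between group means of libraries that share their scaling, and no test was made.

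The inputs themselves differed little at these genes. No gene of the 113 was called between inputs of Night and Day or between inputs of Col0 and any other line, and 1 gene reached an unadjusted p under 0.05 in limma between Night and Day. The largest difference among the 5 genes was 0.10 ± 0.08, for trnV in sig2-2, where more input coverage lowers the enrichment, against a change of -1.91. When the fit held only the libraries of both groups, limma called 16 genes between the inputs of sig2-2 and Col0, this difference at trnV among them.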

How the data were processed

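Per the file headers and values, the authors deposited coverage signal per plastid position as whole numbers, without scaling to library size, in 1 leaf and 1 seedling table with 154477 positions each. Per the submitters' processing notes, Trim Galore 0.4.1, Bowtie2 2.2.8.9, bedtools 2.25.0 and build TAIR10 were used. Filters, duplicate removal and the placement of reads from the inverted repeats are not given in the sources used here. Since neighbouring positions share reads, coverage does not count independent reads, so no count model and no counting interval was used, and depth enters only through the spread between replicates.

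The RefSeq table (TAIR10.1) has 129 plastid entries. Repeated entries of the same name and position were dropped, 15 genes with copies in both inverted repeats were merged, and 113 genes remained. The rRNA gene ArthCr091, which lies in the second repeat, was kept as 1 copy. The repeat mirrored itself in coverage at the annotated place in all 36 libraries. Mean coverage per gene was divided by the plastid total, put on a per kb scale and log2-transformed after adding 1. A fold on this scale in principle understates changes of low genes. limma 3.58.1 (R 4.3.3, eBayes with a variance trend) was fitted to all 12 leaf or all 24 seedling libraries, never together. Windows of 50 bp were fitted the same way over the plastid genome. The fit was tested on simulated data. Tables and plots used Python 3.11.15, numpy 2.4.6, pandas 2.3.3 and matplotlib 3.10.9.

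Alternatives were pseudocounts of 0.1 and 10, centring on the median gene, scaling to coverage outside the inverted repeats, genes of at least 300 bp, the median coverage of a gene, other windows of 100 and 200 bp, fits without a variance trend or with only the groups compared, leaving out each replicate, and a replicate block. Same-numbered libraries deviated together, with every correlation over 0.1, in 3 of 14 comparisons (Day ChIP with input, sig2-2 ChIP with input, sig2-2 ChIP with Col0 ChIP), and in the others shared only a number. The named genes are the 5 members, the lists given, and the 3 genes nearest in pattern to each. The members and lists were chosen with earlier results of these data known.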

Additional observations from a re-analysis of the deposited data

Results flagged for a closer look

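Results in which enrichment differed between groups by the test of the change itself are given here as values, with no explanation. From Day to Night these were ndhC (1.10), ndhK (1.04) and ndhJ (0.53). From Col0 to sig2-2 they were trnV (-1.91), trnM (-1.34) and ndhC (-0.34). From chl27 to sig2-2 they were trnV (-1.78), trnM (-1.01) and ndhC (-0.36), and from chlm to sig2-2 trnV (-1.96), trnM (-1.41) and ndhC (-0.27). From Col0 to chl27 the change of trnM (-0.33) lost its call without replicate 2 or without replicate 3.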

How the results depend on the processing

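Of 708 values of the 5 genes under alternatives, 660 kept their direction and side of the threshold, or (31 of them) changed sign while past it in neither setting. Other pseudocounts and a fit without a variance trend changed no call. Centring on the median gene turned 16 directions. Against input it gave ndhC 0.094 and ndhJ 0.58 in Day, ndhK 0.040 in Night, ndhC 0.45, ndhK 0.11 and ndhJ 0.52 in Col0, ndhJ 0.16 in sig2-2, ndhC 0.31 and ndhK 0.10 in chl27, and ndhC 0.44, ndhK 0.16 and ndhJ 0.55 in chlm. It also gave ndhJ -0.016 for Night against Day, ndhK -0.25 for sig2-2 against Col0, and ndhK -0.29 and ndhJ -0.39 for sig2-2 against chlm. It made ndhJ (-0.37) in sig2-2 against Col0, and ndhK (-0.24) and ndhJ (-0.33) against chl27, pass the threshold. Scaling outside the inverted repeats turned ndhJ to 0.026 in Day and 0.21 in Col0, and left ndhJ at 0.094, not called, for Night against Day. Both scalings move all genes alike: centring shifts the median by 0.19 to 0.94 against input. The median coverage of a gene left ndhC at -0.16, not called, in sig2-2 against chlm.

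Leaving out replicates gave ranges of 0.11 to 0.46 for trnM in Night against Day, -0.40 to -0.26 for ndhC in sig2-2 against Col0, -0.46 to -0.27 for trnM and 0.10 to 0.25 for ndhK in chl27 against Col0, and -0.30 to -0.22 for ndhC in sig2-2 against chlm. Called genes ran from 0 (without replicate 2) to 71 in chl27 against Col0 and from 37 (without replicate 1) to 78 in sig2-2 against chl27. Called windows ran from 8.82% (without replicate 1) to 29.4% lower in chl27 against input, from 0% to 8.82% in chl27 against Col0 and from 0% to 1.47% in chlm against Col0. The causes were not tested.

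With genes of at least 300 bp, fewer were tested, trnM had no value, and the called genes were 58 in Day, 59 in Night, 52 for Night against Day, 57 in Col0, 54 in sig2-2, 55 in chl27, 58 in chlm, 55 for sig2-2 against Col0, 45 against chl27 and 56 against chlm. chlm against Col0 gave 1 called gene with centring, 3 outside the inverted repeats and 3 with the longer genes. Inputs fitted alone gave 15 called genes for Night, 16 for sig2-2, 4 for chl27 and 11 for chlm. Windows outside the inverted repeats were called in 38.2% for Night against Day, and lower in 16.2% for Col0 and 14.7% for chl27 against input. For chl27 against Col0 none (0%) of the 100 or 200 bp windows were called. With the replicate block, 1.47% of windows were called for chl27 and 1.47% for chlm against Col0, ndhC in chlm against input (-0.15) passed the threshold, and no other call of the 5 genes changed. Leaving out replicates of windows, the block on windows and the comparison with the other ndh genes were chosen after seeing the data. The exons and intron of trnV were not analysed apart.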

Other observations

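The genes on both sides of the stretch gave these values. Against input in Col0, trnF was at 1.85 and trnL (ArthCt101) at 1.32, on the ndhJ side, and on the trnM side atpE was at 0.09 and atpB at -0.998. From Col0 to sig2-2 the changes were -1.03 for trnF, -0.70 for trnL, -0.30 for atpE and 0.67 for atpB, all called in limma. From Day to Night they were 0.12, 0.49, 0.03 and 0.85, of which trnL and atpB were called. Scaled to coverage outside the inverted repeats, none of the 4 was called for Night, and centred on the median gene 2 were called lower.

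Input coverage itself dipped in the spacer between ndhC and trnV. The lowest 51 bp mean there was 0.186 to 0.458 of the plastid mean in the 6 leaf inputs and 0.536 to 0.992 in the 12 seedling inputs, at 1255 to 1304 bp before the end of trnV that faces trnM. ChIP libraries dipped at the same place, to 0.169 in Day replicate 3 and to 0.964 in Night replicate 2. Enrichment over this dip had a wide error, with an SE of 0.33 in the leaf window from 50551 to 50600. Some called runs start, end or break at this window, and in Col0 the window itself was called lower at -0.45. Whether the dip sets these places was not tested.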
